A study of Rattus norvegicus with 8 samples.

Results

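Krüppel-like factor (Klf) mRNAs were followed in rat primary thymocytes, the immature T cells of the thymus, cultured with or without the synthetic glucocorticoid dexamethasone. The list holds 10 genes, Klf2, Klf3, Klf4, Klf5, Klf6, Klf7, Klf9, Klf10, Klf13 and Klf15. The gene names printed on the array found 8 of these genes with 13 probes, and a reference table of rat genes added Klf3, whose array name carries another suffix, and Klf13, listed under an older name, which gave 15 probes for 10 genes among 41012 probes in all. Both groups came from adrenalectomized male Sprague-Dawley rats, so the animals' own adrenal glucocorticoids had been removed before culture. The thymi of 3 rats were pooled for a preparation, and the cells were cultured for 6 h in serum-containing medium in 2 groups of 4 arrays each, Control without the steroid and Dex with dexamethasone at 100 nM. Total RNA was hybridised to Agilent whole rat genome arrays with 1 colour, and a level below is a quantile-normalized log2 intensity of 1 probe. The labels number the replicates of each group 1 to 4 without saying that each number was a separate preparation, so the p-values measure the spread between these arrays. Pooled thymocytes are a bulk sample, in which fewer cells of a type and less RNA per cell cannot be told apart.

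Krüppel-like factors are DNA-binding proteins that end in 3 zinc fingers of the C2H2 type, in each of which a pair of cysteines and a pair of histidines hold a zinc ion. The fingers read GC-rich boxes and CACCC boxes in promoters and enhancers, while the rest of each protein differs and recruits either activators or repressors. Klf2 keeps mature T cells quiescent and drives the genes with which they leave the thymus, and Klf9 is a direct target of the glucocorticoid receptor in many tissues. The receptor binds pairs of the hexamers AGAACA and TGTTCT set 3 bases apart.

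The probe sequences are shown because all members share the finger fold, and a probe within it could read a relative. They are written from 5′ to 3′ as on the array, with their position on the rn3 build, and capitals mark the codons of the zinc-binding cysteines and histidines that a pattern search found. The Klf9 probe has no capitals because it lies in the coding sequence ahead of the fingers.
Klf9, coding probe, chr1:226585750-226585809, plus strand: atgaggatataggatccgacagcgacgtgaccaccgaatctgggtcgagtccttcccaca
Klf7, first finger probe, chr9:62884484-62884543, minus strand: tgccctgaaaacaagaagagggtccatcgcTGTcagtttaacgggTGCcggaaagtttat
Klf7, later finger probe, chr9:62846415-62846474, minus strand: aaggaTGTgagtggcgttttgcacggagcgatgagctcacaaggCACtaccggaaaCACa
Klf2 probe, chr16:17942542-17942601, minus strand: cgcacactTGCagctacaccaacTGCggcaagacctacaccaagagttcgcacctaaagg
Klf5, finger probe, chr15:83122433-83123577, plus strand: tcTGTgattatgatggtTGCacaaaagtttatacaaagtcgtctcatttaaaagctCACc
The longest run of identical bases between probes of different members was 9 of 60 bases, between Klf7 and Klf5. Probes were compared with each other and not with the transcripts of relatives, so this run cannot show whether a probe reads a relative. The 60 bases of the Klf5 finger probe spread over 1145 bases of the genome, so this probe crosses an intron.

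Klf9 was the only member called by limma at an adjusted p of 0.05, and both of its probes rose in Dex. With the coding probe, the Klf9 level was 7.10, 7.50, 7.37 and 7.56 on Control arrays 1 to 4, and 9.81, 9.94, 9.62 and 9.95 on Dex arrays 1 to 4. All Dex arrays lay above all Control arrays, with a gap of 2.06 between the highest Control and the lowest Dex array. The log2 fold change of this probe was 2.45 ± 0.17 (SE, n = 4 and 4), a 5.45-fold higher level with a 95% interval of 4.18 to 7.12, at a limma adjusted p of 0.000785 over all probes. With the 3′ probe, at chr1:226609648-226609707, the level was 10.61, 10.57, 10.10 and 10.17 in Control and 12.46, 12.48, 12.15 and 12.27 in Dex. These groups too did not overlap, and the spread within each was small beside the distance between them. The log2 fold change of the 3′ probe was 1.98 ± 0.18 (SE), a 3.93-fold higher level with a 95% interval of 2.94 to 5.26 (limma adjusted p = 0.00342). Ranked by log2 fold change over the array, the coding probe stood at position 48 and the 3′ probe at position 107 of 41012. Of all probes, 0.778% were called in either direction, 0.563% higher and 0.215% lower in Dex, beside which 2 of 15 member probes were called higher and 0 lower (5 of the 15 had an unadjusted limma p under 0.05, as did 10.6% of all probes). With replicate numbers blocked, 81 of all probes were called, and among the members the same 2 Klf9 probes.

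**Figure D1:**
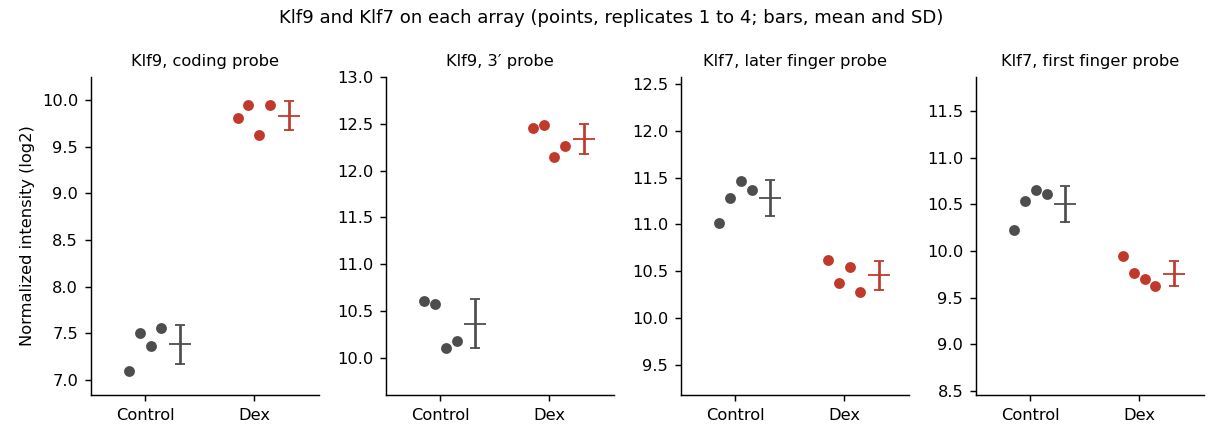
Normalized log2 intensity (y axis) of both Klf9 probes and both Klf7 probes on each of the 8 arrays, with Control in grey and Dex in red; points are arrays and bars the mean with its SD, and all panels span the same range of log2 units. Each Klf9 probe is higher on every Dex array than on any Control array, and each Klf7 probe is lower on every Dex array than on any Control array.

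The slides limit the Klf9 call. Control replicate 1 and Dex replicate 3 shared a slide, the other Control arrays filled another and the other Dex arrays the remaining one, so only 1 slide held both groups. On that slide Dex exceeded Control by 2.52 with the coding probe and by 1.54 with the 3′ probe, and with slide as a fixed block these values did not pass (limma adjusted p = 0.143 and 0.771). Scaling each array to its 75th percentile instead of quantile normalization left the coding probe called and gave the 3′ probe an adjusted p of 0.0657. Under normexp background correction the coding probe's log2 fold change was 1.83, and both probes were called.

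The promoter of Klf9 is shown because this gene rose. It is the 250 bases before the RefSeq transcription start, at chr1:230126396-230126645 on the plus strand of GRCr8, with a CACCC box in capitals.
Klf9 promoter: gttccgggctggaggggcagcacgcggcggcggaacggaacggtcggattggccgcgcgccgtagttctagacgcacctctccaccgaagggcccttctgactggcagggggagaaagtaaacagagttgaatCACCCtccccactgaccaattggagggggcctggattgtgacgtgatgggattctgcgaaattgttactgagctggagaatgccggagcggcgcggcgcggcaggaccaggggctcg
Promoter windows of 300 bases (250 before and 50 after the start) were at hand from RefSeq for 7 members, Klf3, Klf4, Klf5, Klf6, Klf7, Klf9 and Klf15, and were searched on both strands. The hexamer AGAACA was in 0 of the 7 windows and in 20.7% of all 33469 promoter windows, and the full pair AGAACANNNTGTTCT was in 0 of the 7 and in 0.0149% of all. CACCC was in 5 of the 7 (Klf3, Klf5, Klf7, Klf9 and Klf15) and in 54.9% of all windows. GGGCGG was in 3 of the 7 (Klf3, Klf6 and Klf7) and in 33.1% of all windows. Such matches describe letters within a short window and say nothing of sites outside it.

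Klf7, a widely expressed member best studied in neurons, had the lowest log2 fold change in the list and separated groups, but was not called. With the later finger probe its level was 11.01, 11.29, 11.46 and 11.37 in Control, and 10.62, 10.38, 10.55 and 10.28 in Dex. With the first finger probe the level was 10.23, 10.54, 10.65 and 10.61 in Control, and 9.95, 9.76, 9.70 and 9.63 in Dex. On both probes every Dex array lay below every Control array. The log2 fold change was -0.83 ± 0.17 (SE) with the later and -0.75 ± 0.16 with the first finger probe, and the limma adjusted p was 0.0831 and 0.107. In ratios, Control exceeded Dex 1.77-fold and 1.68-fold. Over the array, all Dex arrays lay above all Control arrays for 4.6% of probes and below them for 4.51%, beside which the members had 2 of 15 probes separated upward (both Klf9) and 2 downward (both Klf7). On the shared slide the difference between Dex and Control was -0.47 and -0.53. Both Klf7 probes passed in 6 of 20 alternatives, among them normexp background correction (limma adjusted p = 0.0103 and 0.0308) and a test restricted to probes above background (0.0385 and 0.0491). In these 6 settings 1.97% to 11.4% of all probes were called, beside 0.778% in the main fit. The 6 include the methods' unadjusted thresholds and a fit chosen after the values were seen. The Klf7 probes did not pass with replicate numbers blocked (0.235 and 0.272), under 75th percentile scaling (0.343 and 0.394) or with slide as a fixed block (0.771 for both). Whether Klf7 was called thus depended on the setting, while its direction did not change in any of the 20.

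Another probe at the Klf7 locus, named on the array for an expressed sequence tag and picked after its values were seen, runs on the opposite strand. It is annotated to chr9:62846448-62884446, and 27 of its bases are the reverse complement of the later finger probe. Its level was 7.77, 8.0, 7.67 and 7.79 in Control, and 7.02, 6.57, 7.52 and 7.59 in Dex. The Dex arrays were again below the Control arrays, by as little as 0.08 at the nearest pair, and the log2 fold change of -0.63 ± 0.25 (SE) was not called (limma adjusted p = 0.405). Which strand's RNA this probe measured was not tested.

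Klf3, a repressor that works with the C-terminal binding proteins, had a log2 fold change almost as low as that of Klf7 but overlapping groups. Its level was 6.39, 6.63, 7.14 and 7.20 in Control, and 6.38, 6.43, 5.72 and 5.69 in Dex. The Control and Dex arrays of replicate 1 were nearly level, while those of replicates 3 and 4 stood far apart. Klf3 thus had a log2 fold change of -0.78 ± 0.27 (SE), and limma gave an adjusted p of 0.341. Klf5, a growth-promoting member of epithelia and smooth muscle, showed the same division on the probe at chr15:83133888-83133947. Its level was 6.97, 6.63, 6.18 and 6.42 in Control, and 6.66, 6.98, 4.91 and 4.81 in Dex. Dex replicate 1 lay within the Control range, Dex replicate 2 at its upper edge and Dex replicates 3 and 4 below it, by 1.96 on average below the other Dex pair. For this probe the log2 difference of -0.71 ± 0.52 (SE) had a limma adjusted p of 0.709. Leaving out 1 array moved that difference to values from -1.09 to -0.37. The Klf5 finger probe was not well above background on any Dex array and was so on 3 Control arrays, and no fold is given for it because the background level on the Dex arrays exceeded the Control mean.

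Klf4, which restrains growth in many cell types, had levels of 6.79, 6.25, 6.64 and 6.81 in Control, and 6.85, 7.01, 6.05 and 6.07 in Dex. The Dex arrays of replicates 3 and 4 were again the lowest, and those of replicates 1 and 2 the highest of all. The log2 fold change of Klf4 was -0.13 (95% interval -0.76 to 0.50, limma adjusted p = 0.908), and it turned to 0.02 or 0.01 without Dex replicate 3 or 4. Klf10, first described as a gene induced by TGF-beta, had levels of 7.77, 7.15, 7.81 and 7.83 in Control, and 7.59, 7.43, 7.28 and 6.46 in Dex, on the probe at chr7:73842903-73842962. Only Control replicate 2 lay within the Dex range there. That probe gave a log2 fold change of -0.45 and the other Klf10 probe, at chr7:73842027-73842086, one of -0.18 (limma adjusted p = 0.660 and 0.817).

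**Figure D2:**
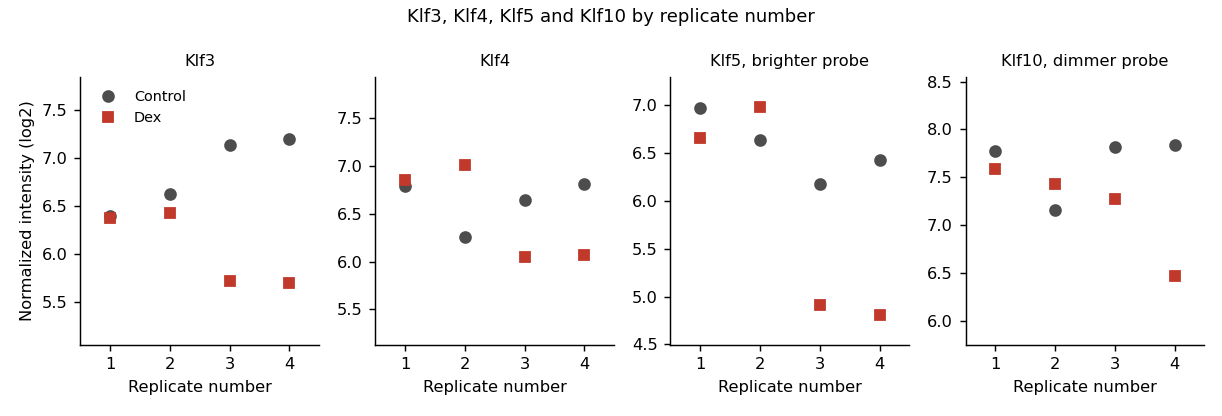
Normalized log2 intensity (y axis) of 1 probe each of Klf3, Klf4, Klf5 and Klf10 by replicate number (x axis), with Control as grey circles and Dex as red squares; each panel spans the same range of log2 units. In replicates 3 and 4 every Dex square is below the Control circle of the same number, and in replicates 1 and 2 they lie close or cross.

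The arrays also differed in signal over background. Probes well above background numbered 28659 on Control replicate 1, 26462 on Dex replicate 1 and 24900 on Dex replicate 2, and 33130 to 34457 on the other 5 arrays. Without those 3 arrays, in a fit chosen after the values were seen, Klf3 had a log2 fold change of -1.28 and Klf5 one of -1.55, and both were called lower in Dex (limma adjusted p = 0.0380 and 0.0353). That fit called 6 of 15 member probes, both of Klf9, both of Klf7, Klf3 and Klf5, in a background of 11.4% of all probes called. Under normexp background correction with all arrays, Klf3 was at -0.39 and the same Klf5 probe at -0.31. Neither was called there (limma adjusted p = 0.252 and 0.748). Klf9 was higher in Dex within both pairs of replicate numbers. The coding probe was 2.57 higher in Dex over replicates 1 and 2 and 2.32 higher over replicates 3 and 4, and the 3′ probe 1.88 and 2.07 higher. For Klf7 the same differences were -0.65 and -1.0 with the later finger probe and -0.53 and -0.97 with the first finger probe, lower in Dex in both pairs. The part of signal over background in these differences was not tested.

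Klf2, the quiescence factor of T cells, had levels of 9.77, 9.14, 9.33 and 9.27 in Control, and 9.54, 9.83, 9.17 and 9.66 in Dex. The groups overlapped, and the log2 fold change of 0.17 had a 95% interval of -0.31 to 0.66 (limma adjusted p = 0.831). On the shared slide the sign was the other way, at -0.60. Klf13, an activator of the chemokine gene Ccl5 in T cells, had levels of 12.69, 12.75, 13.24 and 13.31 in Control, and 12.70, 12.44, 13.06 and 12.96 in Dex. In both groups replicates 3 and 4 were the higher pair, and the log2 fold change was -0.20 (95% interval -0.72 to 0.31, limma adjusted p = 0.807). It too turned on the shared slide, to 0.37.

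Klf6, an immediate early gene in many cells, had levels of 13.57, 13.57, 13.97 and 13.83 in Control, and 13.34, 13.23, 13.63 and 13.49 in Dex, on the probe at chr17:75589643-75589702. Within each replicate number the Dex array was lower by a small margin, while the groups overlapped. The log2 fold change was -0.31 there (95% interval -0.70 to 0.08, limma adjusted p = 0.591), and -0.19 on the probe at chr17:75592383-75592442 (adjusted p = 0.731). Klf15, which serves amino acid metabolism in muscle and liver under glucocorticoids, was close to background. Its probe was well above background on 3 Control and 2 Dex arrays, with levels of 2.55, 3.43, 2.77 and 3.30 in Control and 2.69, 1.07, 3.43 and 3.50 in Dex. The value of Dex replicate 2 stood lowest, and without that array the log2 fold change of -0.34 became 0.19 (limma adjusted p = 0.876 with all arrays).

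**Figure D3:**
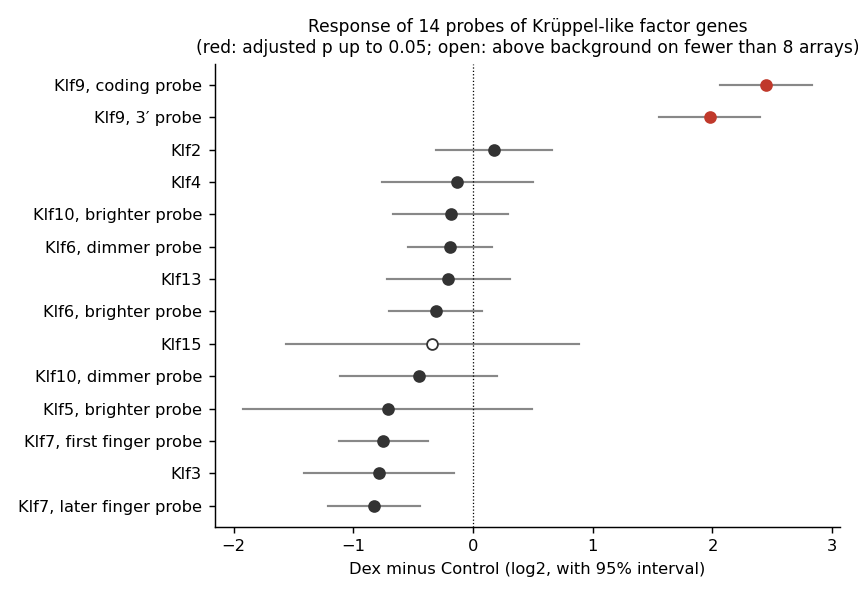
Log2 fold change of Dex against Control (x axis) with its 95% interval from limma for 14 member probes (y axis, ordered by value; the Klf5 finger probe is left out). The Klf9 probes at 2.45 and 1.98 are the red points at an adjusted p up to 0.05, and the open point marks Klf15, which was above background on 5 of the 8 arrays.

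Of the 14 probes above background on an array of each group, 3 had a log2 fold change above 0 and 11 below 0, with a median of -0.26, beside a median of 0.00 over all probes. Counting the brightest probe of each gene, the median of the 10 genes was -0.26, with 2 above 0 and 8 below. Several probes read the same gene, so these are counts and not independent measurements. All member probes but the Klf5 finger probe and that of Klf15 were well above background on all 8 arrays, which makes 13 of 15.

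**Figure D4:**
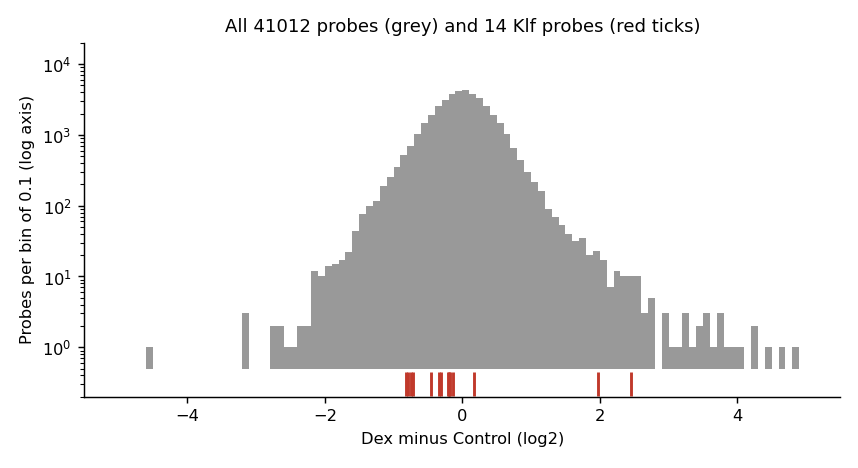
Number of probes (y axis, log axis) in bins of 0.1 of the log2 fold change of Dex against Control (x axis) for all 41012 probes in grey, with 14 member probes (all but the Klf5 finger probe) as red ticks beneath. The Klf9 probes stand in the upper tail and the other 12 ticks lie between -0.83 and 0.17, in the body of the distribution.

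The genes around the members were described by lists. Counts at an unadjusted limma p under 0.05 stand beside a share of 10.6% of all probes, and counts by the methods' signal to noise statistic beside 6.79%. Of 16 SP and Klf relatives outside the members, which bind the same boxes, 14 were found on the array and limma called 0 in either direction (2 had an unadjusted p under 0.05, and signal to noise passed 1), with a median log2 fold change of 0.15. Of these 14, 8 were above background on all arrays. The relatives with the brightest probes were Sp1, a general activator at GC boxes, and Sp9. Sp1 levels lay between 6.83 and 7.07 on all arrays, and Dex differed from Control by 0.08 (log2, limma adjusted p = 0.876). Sp9 had levels of 7.48, 7.33, 7.90 and 7.55 in Control, and 7.48, 7.30, 8.89 and 9.15 in Dex, so that only Dex replicates 3 and 4 stood above the Control range (log2 fold change 0.64, limma adjusted p = 0.694). Of 20 cofactors and ubiquitin ligases of Klf proteins, 16 were found and limma called 0 (4 at an unadjusted p under 0.05, 2 by signal to noise), with a median of -0.10. The corepressor Ctbp1, a partner of Klf3, had a value of -0.20 on the log2 scale (limma adjusted p = 0.715). The deacetylase Hdac2 had a value of -0.31, with all Dex arrays below all Control arrays (limma adjusted p = 0.444).

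Of 15 genes of T cell trafficking and quiescence linked to Klf2, limma called 1, higher in Dex (5 had an unadjusted p under 0.05, and signal to noise passed 4), and the median was -0.03. Of the 5, Itgb7, Cdkn1b and Cdkn2d, picked after their values were seen, had log2 fold changes below 0, at -0.71, -0.52 and -0.46, and were not called. The called gene was Il7r, the interleukin-7 receptor alpha chain, with levels of 5.08, 4.90, 5.06 and 5.18 in Control, and 7.20, 7.08, 6.21 and 6.21 in Dex. All Dex arrays lay above all Control arrays, and Dex replicates 1 and 2 were the highest. Its log2 fold change was 1.62 ± 0.27 (SE), with a limma adjusted p of 0.0410 that rose to 0.160 once replicate numbers were blocked and to 0.771 with slide as a fixed block. Under normexp its log2 fold change was 0.75, still called. The call was also lost without any single array other than Dex replicate 3 (adjusted p = 0.057 to 0.172).

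Another list held 18 genes, chosen as glucocorticoid receptor targets that share control with Klf9 or Klf15, and included the receptor genes Nr3c1 and Nr3c2. It is a mixed list and does not stand for receptor targets as a class. Of the 18, 17 were found, 5 were called higher and 0 lower by limma (8 had an unadjusted p under 0.05, and signal to noise passed 8), with a median of 0.30. Of these, Ddit4, a brake on mTOR signalling, rose by 3.73 ± 0.19 (SE) on the log2 scale, and Tsc22d3, the leucine zipper protein GILZ, by 3.59 ± 0.18. Dusp1, a phosphatase of MAP kinases, rose by 3.05 ± 0.21 and Fkbp5, a co-chaperone of the receptor, by 1.73 ± 0.13. The limma adjusted p of these 4 lay between 0.000153 and 0.00133, and the remaining called gene was Nfkbia. Under scaling to the 75th percentile Fkbp5 did not pass (adjusted p = 0.0528), and with slide as a fixed block none of the 4 did (0.124 to 0.290). Not all of the list pointed upward. Sgk1, a kinase named here after its values were seen, had a log2 fold change of -1.32 with every Dex array below every Control array, just short of a call (limma adjusted p = 0.0503). Read from the brightest probe of each gene, the changes of Ddit4, Tsc22d3 and Dusp1 were thus above both Klf9 values, and that of Fkbp5 below them. Tsc22d3 has 2 probes and Fkbp5 has 3, and their other probes are not given here.

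**Figure D5:**
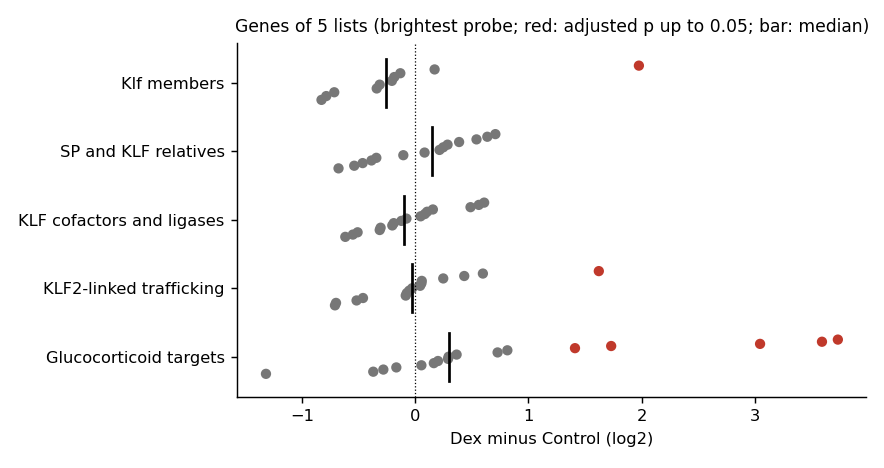
Log2 fold change of Dex against Control (x axis) for the members and for 4 lists of related genes (y axis), 1 point per gene by its brightest probe, with red points at a limma adjusted p up to 0.05 and a black bar at each list's median. The called genes are Klf9, Il7r and 5 glucocorticoid receptor targets, and the SP relatives and the cofactors hold 0 called genes.

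Genes were also ranked by how closely their levels followed the Klf9 coding probe over the 8 arrays. Among 15792 genes the highest Pearson correlations were those of Laptm5 (0.996), Nfkbia (0.995), Fkbp5 (0.992), LOC691431 (0.992) and Sesn1 (0.992). All 5 separated the groups as Klf9 did, with log2 fold changes of 1.30, 1.41, 1.73, 2.10 and 1.28. The correlation is a description over 8 arrays that share their normalization, and 354 genes had one above 0.9.

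The cells were checked against markers. All 14 thymocyte markers were above background on all arrays, with 0 called by limma in either direction. Their log2 fold changes had a median of -0.19, with 3 above 0 and 11 below. At an unadjusted limma p under 0.05 there were 5 of them, beside 10.6% of all probes, and signal to noise passed 3, beside 6.79%. The CD3 subunits Cd3d and Cd3g of the T cell receptor complex had levels of 16.4 to 17.2. Lck (-0.68), Cd5 (-0.70) and Ptcra (-0.61), picked after their values were seen, had every Dex array below every Control array. Cd8b (0.52), picked in the same way, had every Dex array above every Control array with a value. None of these was called. The summed linear intensity of 13 thymocyte markers was 354500 to 391300 in Control and 279600 to 383100 in Dex, lowest on Dex replicates 3 and 4. Cd8b, which had no value on Control replicate 1, was left out of this sum. Of 8 macrophage markers 0 were called (2 at an unadjusted p under 0.05, 0 by signal to noise) and 7 were above background on all arrays, with sums of 904.5 to 1195 in Control and 1165 to 1877 in Dex. For Cd68 the log2 difference was -0.12 and for C1qb 0.84 (limma adjusted p = 0.840 and 0.330). Of the 4 B cell markers found, 0 were called (0 also at an unadjusted p under 0.05 and by signal to noise), with sums of 341.5 to 460.6 in Control and 226.5 to 565.8 in Dex. Cd79b and Blnk had log2 fold changes of -0.10 and -0.12.

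Of 7 endothelial markers 1 was called (3 had an unadjusted p under 0.05, and signal to noise passed 2), the adhesion molecule Pecam1, which T cells also carry and which was 1.36 higher in Dex on the log2 scale (limma adjusted p = 0.0208, rising to 0.108 once replicate numbers were blocked, 0.0621 under 75th percentile scaling and 0.771 with slide as a fixed block). Under normexp its log2 value was 0.59, still called. Its call was lost without any 1 Control array, Dex replicate 1 or Dex replicate 4 (adjusted p = 0.0667 to 0.0971). The list had 4 markers above 0 and 3 below, with a median of 0.32, and Vwf, named after its values were seen, was at -0.53 with every Dex array below every Control array, not called. The summed intensity of that list was 1877 to 2442 in Control and 1264 to 1744 in Dex. Of 10 epithelial and stromal markers 0 were called (1 at an unadjusted p under 0.05, 1 by signal to noise), with sums of 4021 to 5492 in Control and 5263 to 7038 in Dex. The list had 9 markers above 0 and 1 below, with a median of 0.38. Krt18 had a log2 fold change of 0.14 and the collagen gene Col1a1 one of 0.57. Pdgfrb, named after its values were seen, was at 1.72 with every Dex array above every Control array. It was above background on 5 arrays and not called (limma adjusted p = 0.160). Col1a1, like Sp9, stood highest on Dex replicates 3 and 4, at 9.89 and 10.05, beside 8.42 to 8.87 on the other arrays. Of the 4 erythroid markers found 0 were called (0 also by the other 2 criteria), with sums of 312.9 to 1395 in Control and 353.3 to 2368 in Dex, and Hbb and Alas2 had log2 fold changes of 0.45 and 0.64. No list of another cell type was at background throughout, and the part of these cells in the Klf values was not tested.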

How the data were processed

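Total RNA of cultured rat thymocytes was labelled with Cy3 and hybridised to 8 Agilent arrays (4 Control and 4 Dex). The deposited intensity of each spot had been background-subtracted and detrended by the authors with Feature Extraction 9.5.3.1, per the file headers, which place the probes on the build rn3. The deposited flags (0 or 1) of that software mark spots above background, saturated or outlying. The deposited log2 table holds the values the authors quantile normalized and summarized by median polish, and was used as an alternative. From the intensities, log2 values were quantile normalized and spots of 1 probe combined by median polish, after outlier spots had been left out (16 probe values were then missing). Saturated spots numbered 0 on every array. Dex was compared with Control by limma 3.58.1 in R 4.3.3, two-sided, with Benjamini-Hochberg adjustment over 41012 probes and a call at 0.05. The number of arrays limits the precision. The study's methods state 3 biological replicates, while 4 arrays per group were used here.

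The members, the 4 gene lists and the marker lists were chosen with earlier results of these data known. Named were all members with every probe and, from each list, every called gene (the 4 with the largest change where over 4 passed) or, where none was, the 2 with the brightest probes, and the 5 genes most like Klf9. Genes named outside this rule are marked as picked after their values were seen. Array names were updated through a RefSeq table of GRCr8, by accession for 10735 probes, by symbol for 5571 and by synonym for 3729. No value column lacked a sample (0 columns). Fits were tested on simulated data. Where Dex and Control were set 1 log2 unit apart, the fit recovered 15.2% of 66 probes. At 2 units it recovered 52.2% of 67 probes, and at 3 units 80.6% of 67, with 5 false calls among 40996 probes. Recovery below 1 unit was not tested. Same-numbered Control and Dex arrays deviated together from their group means (correlations 0.397, 0.129, 0.55 and 0.184). Differently numbered arrays were not compared in this way, and the main fit did not use the replicate number as a pairing. The study's methods use no block, and the blocked fit was an alternative, as were slide as a fixed or random block, other scaling, normexp with an offset of 50, a filter on dim probes, outlier spots kept, each array left out, and the methods' own thresholds (nominal p of 0.01, fold of 1.2) with limma and with a signal to noise statistic over 70 assignments of the arrays.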

Additional observations from a re-analysis of the deposited data

Results flagged for a closer look

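Among 70 groups of 4 arrays for the members and named genes, 4 had an array that stood apart, beside about 1 in 20 that chance would give. On the dimmer Klf10 probe, Control replicate 2 was at 7.15 and the other Control arrays at 7.77 to 7.83, a gap of 0.915 of the group's range. For Sp1, Control replicate 3 was at 6.83 and the others at 6.98 to 6.99 (0.959 of the range). For Cd3d, Control replicate 2 was at 16.99 and the others at 17.09 to 17.10 (0.99 of the range). For Krt18, Control replicate 3 was at 11.31 and the others at 12.05 to 12.13 (0.907 of the range).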

How the results depend on the processing

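The count of called member probes (2, both Klf9) stayed at 2 with the replicate block, with the deposited table, with outlier spots kept, with replicates 1 and 2 against 3 and 4 as a batch, and without any single array (2 to 2). It was 0 with slide as a fixed block, 1 with scaling to the 75th percentile, and 4 (both probes of Klf9 and of Klf7) with slide as a random block, normexp, dim probes left out, the methods' nominal thresholds and the signal to noise statistic. It was 6 without the 3 arrays with the fewest probes above background. That alternative and the batch of replicate numbers were chosen after the data were seen.

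Over all probes the count of 319 was 1 with slide as a fixed block and 81 with the replicate block, which among the members, Il7r, Pecam1, Tsc22d3, Ddit4, Dusp1 and Fkbp5 changed the calls of Il7r and Pecam1 alone. It was 1840 with slide as a random block (within-slide correlation -0.236), 166 with 75th percentile scaling, 915 with normexp, 562 with dim probes left out, 1593 with the nominal thresholds and 2784 with signal to noise. It was 670 with the batch of replicate numbers and 4671 without the 3 arrays. Leaving out 1 array gave 96 (without Control replicate 4) to 249 (without Dex replicate 3). The cause was not tested.

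Directions turned for 5 members, none of them called. With slide as a fixed block Klf13 was at 0.37, Klf15 at 0.87, Klf2 at -0.60 and Klf6 at 0.065. Without the 3 arrays Klf15 was at 0.30. Leaving out 1 array moved Klf15 from -0.61 to 0.19 and Klf4 from -0.30 to 0.018. The Klf9 changes kept their sign in all 20 alternatives, at 1.83 to 2.52 (coding probe) and 1.54 to 2.06 (3′ probe), as did those of Klf7. Signal over background limits Klf15 and the Klf5 finger probe.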
